A study of Rattus norvegicus with 18 samples.

Results

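The genes described here act in glucose uptake and glycolysis, and they were followed in the hearts of young male rats whose dams had received cannabidiol during pregnancy. They are Slc2a1 (ENSRNOG00000007284), Slc2a4 (ENSRNOG00000017226), Hk2 (ENSRNOG00000006116), Gapdh (ENSRNOG00000018630), Pkm (ENSRNOG00000011329) and Ldha (ENSRNOG00000013009). The 6 genes were taken from a list of their rat Ensembl identifiers, which sets no threshold on a measured value but was drawn up with earlier results of these data known. All 6 were present among the 30560 genes of the deposited count table, and all 6 passed the filter on low counts, as did 17009 genes in all. The symbols are those given with the list. The RefSeq gene table used here (assembly GRCr8, 47357 genes) holds an Ensembl identifier for 0 genes, so the pairing of identifier and symbol was not checked, and the role given for each gene is that of its symbol.

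Cannabidiol (CBD) is a non-intoxicating compound of the cannabis plant. Bulk RNA sequencing was done on whole hearts of 18 male Wistar offspring aged 3 weeks. Their dams had received vehicle (n = 7 offspring), CBD at 3 mg/kg/day (CBD3, n = 6) or CBD at 30 mg/kg/day (CBD30, n = 5) during gestation. The labels name no mutant allele or transgene in any group. They also do not state the days and route of dosing, the vehicle's composition or the litters of the offspring. The dams were the dosed animals, and likeness among littermates would make p-values computed per offspring too small. The heart as the tissue of origin rests on the labels, because its marker genes could not be looked up by symbol. In whole hearts, fewer cells of a type and less RNA per cell cannot be told apart.

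Libraries held 44127009 to 89240727 counts, and the 6 genes had between 667 counts (Slc2a1) and 68804 counts (Ldha) in a single heart. Each heart is named by the code on its count column, such as 3.1, which no label explains. The last digit of the code is 1 for 4 vehicle, 3 CBD3 and 2 CBD30 hearts, and 2 for 3 hearts of each group. Libraries of digit 1 held 63672078 to 89240727 counts and those of digit 2 held 44127009 to 67302419. Code digit and depth thus largely went together, and the part of depth in differences between digits was not tested. On the first principal component of all tested genes, vehicle hearts 1.1 and 2.1 (scores -57.9 and -65.0) and CBD30 heart 2.1 (65.5) lay farthest out. Fold changes and relations that these 3 hearts move are given with and without them. The 2 vehicle hearts lay below every other vehicle heart in Gapdh, Pkm and Ldha and above every other in Hk2. CBD30 heart 2.1 was the highest of all hearts in Gapdh, Pkm and Ldha. Leaving these hearts out thus shifts the fold changes of those genes against vehicle in a direction set by the choice. It also narrows the range for relations, so it is no independent check.

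Glucose enters heart muscle cells through carriers in the cell membrane. Slc2a1 encodes GLUT1, a carrier that works without insulin and is prominent in the fetal heart, and Slc2a4 encodes GLUT4, the insulin-responsive carrier of mature heart and skeletal muscle. Hexokinase 2 (Hk2) traps glucose in the cell by phosphorylating it. Glyceraldehyde-3-phosphate dehydrogenase (Gapdh) and pyruvate kinase M (Pkm) catalyse later steps of glycolysis, and lactate dehydrogenase A (Ldha) is a subunit of the enzyme that interconverts pyruvate and lactate. The fetal heart relies strongly on glucose and lactate, and the heart shifts toward fatty acids as fuel after birth.

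None of the 6 genes was called different between any 2 groups. Levels below are CPM, a gene's share of the counts of its library, scaled by trimmed mean of M values (TMM), and differences are log2 fold changes from 1 quasi-likelihood fit of all 18 hearts in edgeR. P-values were adjusted by Benjamini-Hochberg over 17009 genes with a threshold of 0.05. At that threshold 0 of 6 genes were called in each of the 3 comparisons (each dose with vehicle, and CBD30 with CBD3), as were 0% of all tested genes. With DESeq2, 160, 8 and 1 genes of the table were called in these comparisons, and with limma voom 0 in each. None of the 6 was among those DESeq2 called. Without vehicle heart 3.1, edgeR called 267 genes for CBD30 against vehicle, again with none of the 6 among them. At an unadjusted p under 0.05 in edgeR, 1 of the 6 (Ldha) was counted for CBD30 against vehicle, where 16.4% of all genes (2794) were. For CBD3 against vehicle the count was 0 of 6 beside 8.92% of all genes (1518), and for CBD30 against CBD3 it was 0 of 6 beside 1.73% (294).

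**Figure D1:**
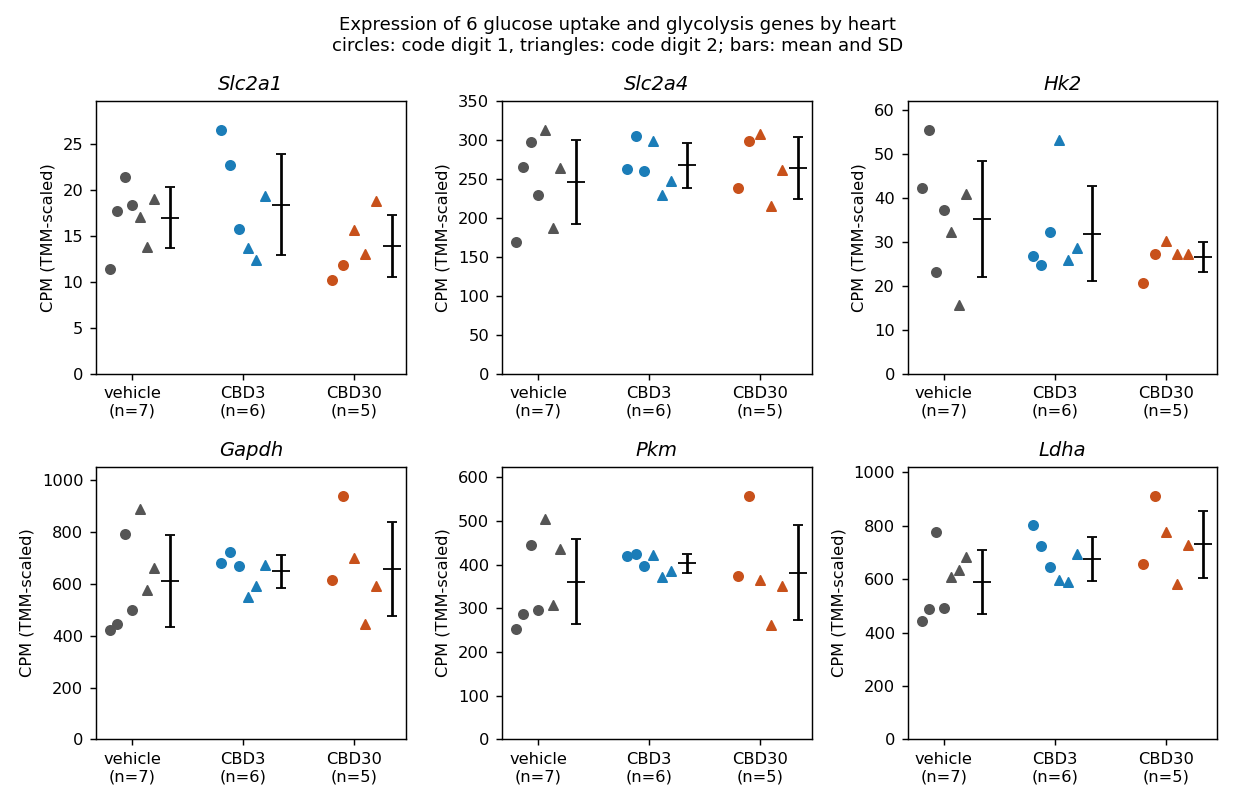
CPM of each gene (vertical axes, TMM-scaled, starting at 0) in every heart of the 3 groups, with circles for codes ending in digit 1, triangles for codes ending in digit 2, and bars for the mean and SD. The groups overlap for all 6 genes. CBD3 hearts lie close together for Pkm, at 372 to 425 CPM.

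Slc2a1 had its lowest group mean in CBD30 hearts and its highest in CBD3 hearts, although the medians of CBD3 and vehicle hearts were nearly equal. Vehicle hearts ranged from 11.5 CPM to 21.4 CPM with a median of 17.7 CPM, and CBD3 hearts from 12.4 CPM to 26.6 CPM with a median of 17.6 CPM. The 5 CBD30 hearts were at 10.2, 11.8, 13.1, 15.6 and 18.9 CPM. The CBD30 heart coded 1.1 lay below every vehicle heart, and the other 4 lay within the vehicle range. CBD3 hearts 1.1 and 2.1 (26.6 and 22.8 CPM) lay above every vehicle heart. The log2 fold change was -0.29 ± 0.20 (SE) for CBD30 against vehicle (edgeR adjusted p = 0.449), with a 95% interval of -0.70 to 0.12. For CBD3 against vehicle it was 0.12 ± 0.18 (edgeR adjusted p = 0.797), and it turned to -0.016 without CBD3 heart 1.1 and to -0.14 in the hearts of code digit 2. Between doses it was -0.41 ± 0.20 (edgeR unadjusted p = 0.0585, adjusted p = 0.999), with an interval of -0.83 to 0.02.

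For Slc2a4 the 3 groups were close. Vehicle hearts ran from 169 CPM to 313 CPM (median 264 CPM), and CBD3 hearts from 230.1 CPM to 305 CPM (median 262 CPM). The CBD30 hearts had 215, 238, 262, 299 and 308 CPM, all within the vehicle range. The log2 fold change was 0.10 ± 0.14 (SE) for CBD30 and 0.12 ± 0.13 for CBD3 against vehicle (edgeR adjusted p = 0.724 and 0.716). The 95% intervals reached from -0.19 to 0.40 for CBD30 and from -0.16 to 0.40 for CBD3. Without the 3 outlying hearts the values were -0.015 ± 0.14 and 0.052 ± 0.13.

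The balance of the insulin-responsive to the insulin-independent carrier was read as the ratio of Slc2a4 to Slc2a1 counts in each heart. This ratio depends on the lengths of both transcripts, so it is compared between hearts only and is not a ratio of molecules. Its mean in the 7 vehicle hearts was 14.5 ± 1.85 (SD), beside 15.5 ± 4.35 over 6 CBD3 hearts and 19.7 ± 4.73 over 5 CBD30 hearts. The CBD30 hearts had 13.9, 16.4, 19.7, 23.4 and 25.3, and 3 of them exceeded the highest vehicle heart (18.3). The values 23.4 and 25.3 were those of code digit 1, the latter in outlying heart 2.1. In digit 2, CBD30 hearts had 13.9, 16.4 and 19.7 beside 13.5, 13.9 and 18.3 in vehicle hearts. CBD3 hearts spread on both sides of the vehicle range, with 9.92 below it and 18.6 and 21.9 above it. The ratio was not tested.

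Hk2 differed most from heart to heart. Vehicle hearts ranged from 15.6 CPM (code 2.2) to 55.4 CPM (code 2.1) with a median of 37.1 CPM. CBD3 hearts ranged from 24.7 CPM to 53.1 CPM with a median of 27.7 CPM, and the CBD30 hearts had 20.7, 27.2, 27.2, 27.3 and 30.1 CPM. The CBD30 hearts formed a narrow band inside the vehicle range, with a coefficient of variation of 13.1% against 37.3% in vehicle and 33.7% in CBD3 hearts. CBD3 hearts other than the 1 at 53.1 CPM lay at 24.7 to 32.2 CPM, and the difference in spread was not tested. The log2 fold change was -0.41 ± 0.24 (SE) for CBD30 against vehicle, with an interval of -0.92 to 0.10 (edgeR adjusted p = 0.398). Leaving out each heart in turn gave -0.54 (without vehicle heart 2.2, edgeR adjusted p = 0.201) to -0.27 (without vehicle heart 2.1). Without the 3 hearts farthest out on the first component the log2 fold change was -0.18 ± 0.26. For CBD3 it was -0.14 ± 0.23 (edgeR adjusted p = 0.798), and 0.10 ± 0.23 without the 3 hearts.

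Gapdh, whose enzyme oxidises glyceraldehyde-3-phosphate and whose transcript is often taken as an internal reference, varied 2.23-fold between the highest and the lowest heart. Vehicle hearts ran from 421 CPM (code 1.1) to 890 CPM (code 1.2), with a median of 577 CPM. CBD3 hearts were at 548 to 725 CPM (median 671 CPM), and the CBD30 hearts at 446, 590, 614, 700 and 940 CPM. The highest heart of all was CBD30 2.1, and vehicle and CBD30 hearts covered nearly the same range. The log2 fold change was 0.10 ± 0.19 (SE) for CBD30 and 0.08 ± 0.18 for CBD3 against vehicle (edgeR adjusted p = 0.789 and 0.856). Without CBD30 heart 2.1 the first of these was -0.06, and without the 3 outlying hearts it was -0.22 ± 0.16, with -0.078 ± 0.14 for CBD3.

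Pkm, which encodes the enzyme of the last step of glycolysis, had vehicle values from 253 CPM to 505 CPM (median 307 CPM). The CBD30 hearts had 261, 351, 366, 374 and 557 CPM. CBD3 hearts lay between 372 CPM and 425 CPM, all above the medians of vehicle and CBD30 hearts and within the range of both groups. Their coefficient of variation was 5.46%, against 27.2% in vehicle and 28.3% in CBD30 hearts, and this difference in spread was not tested. The log2 fold change was 0.08 ± 0.18 (SE) for CBD30 and 0.16 ± 0.17 for CBD3 against vehicle (edgeR adjusted p = 0.827 and 0.692). For CBD30 it was -0.09 without heart 2.1 and -0.23 ± 0.15 without the 3 outlying hearts, and for CBD3 it was 0.021 ± 0.13 without those 3.

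Ldha had the smallest p-value of the 6 genes for CBD30 against vehicle. Vehicle hearts ranged from 441 CPM to 777 CPM (median 607 CPM), CBD3 hearts from 588 CPM to 803 CPM (median 669 CPM), and the CBD30 hearts had 580.2, 657, 729, 775 and 911 CPM. The means stood in the order vehicle, CBD3 and CBD30, but only CBD30 heart 2.1 and CBD3 heart 1.1 exceeded every vehicle heart. The log2 fold change was 0.31 ± 0.14 (SE) for CBD30 against vehicle, with an interval of 0.02 to 0.60 (edgeR unadjusted p = 0.0386, adjusted p = 0.279). For CBD3 it was 0.20 ± 0.13 (edgeR adjusted p = 0.585), and between doses 0.11 ± 0.15 (edgeR adjusted p = 0.999). Leaving out each heart in turn gave 0.22 to 0.39 for CBD30 against vehicle, and leaving out the 3 outlying hearts gave 0.10 ± 0.13 for CBD30 and 0.079 ± 0.12 for CBD3.

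**Figure D2:**
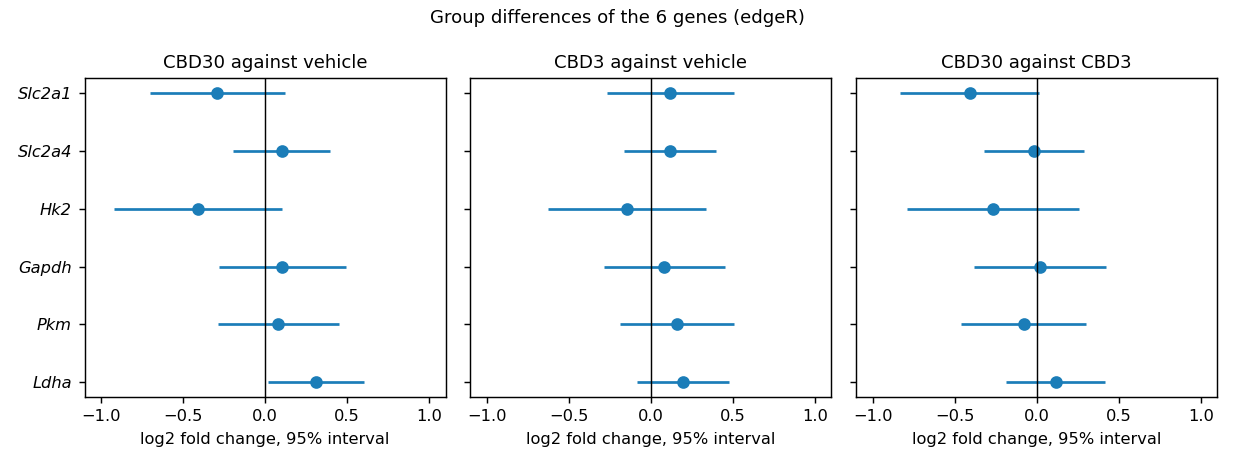
Log2 fold change (horizontal axes) of each gene in the 3 group comparisons, with points for the edgeR estimate and lines for its 95% interval. Of the 18 intervals, that of Ldha for CBD30 against vehicle lies wholly on 1 side of 0, at 0.02 to 0.60.

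Neighbouring groups were not separated for any of the 6 genes. Groups overlapped for 6 of 6 genes in each comparison. Over all tested genes, the groups did not overlap for 0.629% in CBD30 against vehicle, 0.194% in CBD3 against vehicle and 0.218% in CBD30 against CBD3. The median log2 fold change of the 6 genes was 0.09 for CBD30 and 0.12 for CBD3 against vehicle, beside -0.02 and -0.02 over all tested genes. Both comparisons use the same 7 vehicle hearts. Without the 3 outlying hearts, CBD30 against vehicle was -0.32 for Slc2a1, -0.015 for Slc2a4 and -0.18 for Hk2. It was -0.22 for Gapdh, -0.23 for Pkm and 0.10 for Ldha. The CBD3 values then ran from -0.078 (Gapdh) to 0.098 (Hk2). For CBD30 against vehicle the widest interval was that of Hk2, which left room for a fold of 0.528 to 1.07. In that comparison the interval for Slc2a4 left room for a fold of 0.874 to 1.32.

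The genes differed more between hearts of 1 group than most genes did. The pooled SD of log2 CPM within groups was 0.47 for Hk2, larger than in 95.1% of the 8483 genes that averaged 10 CPM or more. It was 0.36 for Slc2a1 (larger than in 89.7%), 0.34 for Gapdh (87.3%) and 0.32 for Pkm (84.0%). For Slc2a4 and Ldha it was 0.26 and 0.25, above 67.7% and 64.2% of those genes, whose median SD was 0.21.

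Across hearts, Gapdh, Pkm and Ldha varied together, and Slc2a4 with them. Relations were measured between the log2 CPM of all 15 pairs of the 6 genes over 18 hearts, with permutation tests of 100000 resamples, and 6 of 15 passed an adjusted p of 0.05. The smallest r among these 6 was 0.599. Of all pairs of the 8483 genes that averaged 10 CPM or more, 20.2% had an r at least that large in size and 11.8% had one that was also positive. Gapdh and Pkm had a Pearson r of 0.927 (permutation p = 1e-05, the smallest the resamples can give, adjusted p = 0.00015) and a Spearman rho of 0.847 (permutation adjusted p = 0.0009). Gapdh and Ldha had r = 0.803 and rho = 0.802 (permutation adjusted p = 0.000525 and 0.0009). Pkm and Ldha had r = 0.738 and rho = 0.637 (permutation adjusted p = 0.0018 and 0.0172). In the same 18 hearts, the ones low in Gapdh, such as vehicle 1.1 and 2.1, were also low in Pkm and Ldha, and CBD30 heart 2.1 was highest in all 3.

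Slc2a4 followed Pkm with r = 0.774 and rho = 0.711 (permutation adjusted p = 0.00055 and 0.00635) and Gapdh with r = 0.698 and rho = 0.699 (permutation adjusted p = 0.00378 and 0.00694). Its relation to Ldha had r = 0.599 and rho = 0.515 (permutation adjusted p = 0.0224 and 0.0776). Slc2a1 passed with none of the other 5 genes. Its highest r was 0.429, with Slc2a4 (permutation adjusted p = 0.142). Hk2 also passed with none, and its values with Gapdh, Pkm and Ldha were negative, at r = -0.376, -0.137 and -0.497 (permutation adjusted p = 0.206, 0.624 and 0.0783). With group means removed, Slc2a1 and Ldha had r = 0.542, which passed, and rho = 0.515, which did not (permutation adjusted p = 0.0439 and 0.0573).

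**Figure D3:**
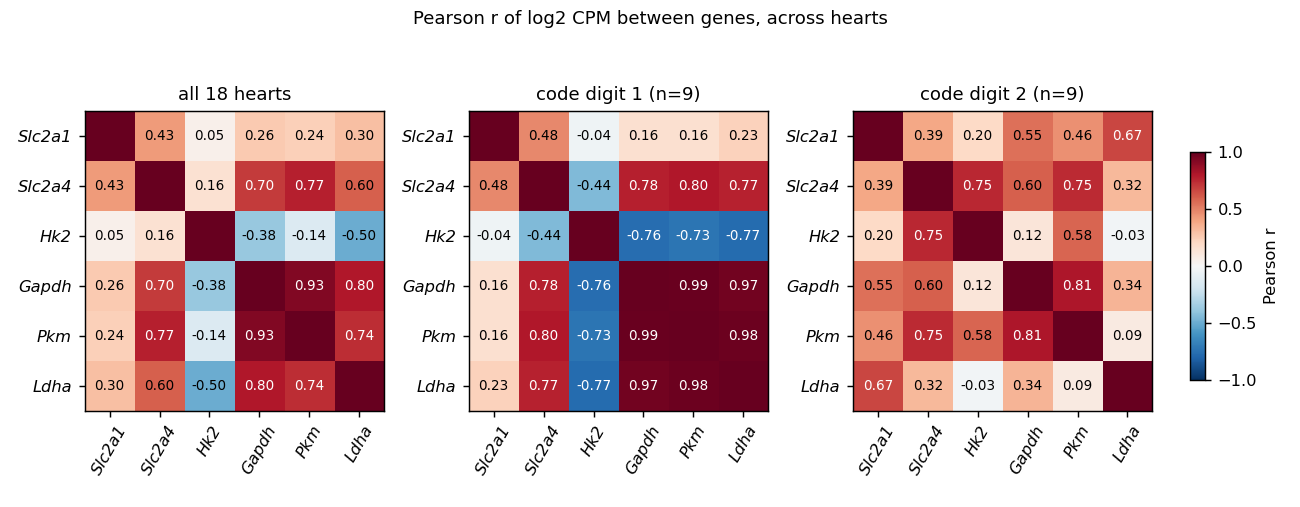
Pearson r of log2 CPM for each pair of the 6 genes (colour from -1 to 1, with the value in each square), over all 18 hearts, over the 9 hearts with codes ending in digit 1 and over the 9 ending in digit 2. The pair Gapdh and Pkm is at 0.93, 0.99 and 0.81, and Pkm and Ldha at 0.74, 0.98 and 0.09.

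Most of these values were larger in size in the hearts of code digit 1 than in those of digit 2. In the 9 hearts ending in digit 1, r was 0.992 for Gapdh and Pkm, 0.966 for Gapdh and Ldha and 0.981 for Pkm and Ldha (exact permutation adjusted p = 4.13e-05, 0.000579 and 0.00031). In the 9 ending in digit 2 it was 0.812, 0.341 and 0.0912 (exact permutation adjusted p = 0.1, 0.537 and 0.875), and 0 of 15 pairs passed there. Hk2 was opposed to Gapdh, Pkm and Ldha in the digit 1 hearts (r = -0.759, -0.730 and -0.767, exact permutation adjusted p = 0.0342, 0.0432 and 0.0342). In the digit 2 hearts those values were 0.119, 0.584 and -0.0283 (exact permutation adjusted p = 0.875, 0.234 and 0.944). The difference between digits was not itself tested, and the 3 outlying hearts are all in digit 1. Without them, r over 15 hearts was 0.862 for Gapdh and Pkm, 0.575 for Gapdh and Ldha and 0.453 for Pkm and Ldha (permutation adjusted p = 0.00075, 0.0904 and 0.155). Slc2a4 had 0.774 with Pkm, 0.679 with Gapdh and 0.451 with Ldha, of which the last no longer passed (permutation adjusted p = 0.006, 0.0268 and 0.155). Hk2 had -0.0904 with Gapdh, 0.261 with Pkm and -0.282 with Ldha, the value with Pkm being positive without these hearts (permutation adjusted p = 0.750, 0.398 and 0.387). Leaving out instead the 2 hearts farthest from the median of the first gene of each pair gave r = 0.883, 0.674 and 0.555. For Slc2a4 with Pkm, Gapdh and Ldha it gave 0.704, 0.677 and 0.486, and the pairs of Ldha with Pkm and with Slc2a4 no longer passed (permutation adjusted p = 0.0766 and 0.133).

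**Figure D4:**
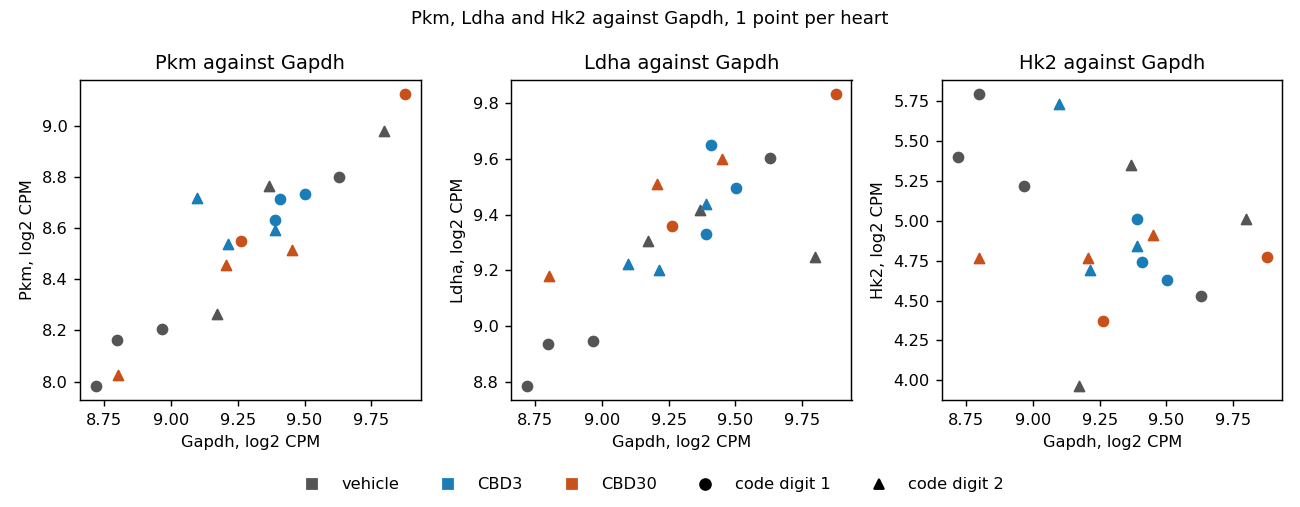
Log2 CPM of Pkm, Ldha and Hk2 (vertical axes) against that of Gapdh (horizontal axes), with 1 point per heart, colour for the group, circles for codes ending in digit 1 and triangles for digit 2. Vehicle heart 1.2, the triangle at the far right of the grey points, is high in Gapdh and Pkm (890 and 505 CPM) but not in Ldha (607 CPM).

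Measures of the whole library moved with the same genes. The first principal component, which is built from all tested genes including these 6, had r = 0.896 with Gapdh, 0.807 with Pkm and 0.907 with Ldha (permutation adjusted p = 6e-05 each over 18 relations), and -0.587 with Hk2 (permutation adjusted p = 0.0228). Spearman rho was 0.938, 0.771, 0.868 and -0.531 for these 4 genes (permutation adjusted p = 0.00012, 0.000792, 0.00012 and 0.0486). The 2 hearts farthest from the median of the component were vehicle 1.1 and 2.1, while CBD30 heart 2.1 at the other end stayed in. Without those 2 vehicle hearts, r was 0.852, 0.728, 0.851 and -0.332. Within digit 1 it was 0.984, 0.976, 0.960 and -0.834, and within digit 2 it was 0.791, 0.392, 0.528 and -0.192.

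The TMM scaling factor, which every scaled value of a heart shares, was low where Gapdh, Pkm, Slc2a4 and Ldha were high (r = -0.831, -0.853, -0.817 and -0.671, rho = -0.831, -0.847, -0.754 and -0.618, permutation adjusted p = 9e-05, 9e-05, 9e-05 and 0.00602 for r). Within digit 1, r was -0.976, -0.973, -0.854 and -0.944 in the same order, and within digit 2 it was -0.595, -0.671, -0.776 and -0.0167, the value for Ldha being near 0 there. Without the 2 hearts farthest from the median of the factor r was -0.735, -0.768, -0.749 and -0.452, and with library size as the scale it was -0.659, -0.688, -0.530 and -0.320. With library size alone as the scale, Gapdh and Pkm still had r = 0.862 and Gapdh and Ldha 0.634, while Slc2a4 had 0.523 with Pkm and 0.385 with Gapdh (permutation adjusted p = 0.0003, 0.023, 0.072 and 0.245). On that scale Pkm and Ldha had 0.514 and Slc2a4 and Ldha 0.273 (permutation adjusted p = 0.072 and 0.411), and neither passed, while Hk2 passed with Gapdh at -0.620 and with Ldha at -0.647 (permutation adjusted p = 0.023 each). Total counts had r between -0.103 and 0.191 with the 6 genes and passed with none (lowest permutation adjusted p = 0.730). The part of these measures in the relations was not tested.

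Other genes followed Gapdh and Pkm more closely than these followed each other. With group means removed, the nearest to Gapdh among 8482 genes that averaged 10 CPM or more was ENSRNOG00000038610 (Pearson r = 0.987, 18 hearts), and the nearest to Pkm was ENSRNOG00000023150 (r = 0.979). No table used here gives a symbol for either identifier. Pkm, at r = 0.934 on that scale, ranked 100 among the genes nearest to Gapdh, and Gapdh ranked 58 among those nearest to Pkm. The closest of the 6 to Ldha was Gapdh (r = 0.848, rank 447), and the closest to Slc2a4 was Pkm (r = 0.763, rank 309). For Slc2a1 it was Ldha (r = 0.542, rank 174). For Hk2 the closest of the other 5 genes was Slc2a4 at r = 0.224, at rank 2827.

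Promoter sequences are shown for the 3 genes that varied together and for Hk2, which did not follow them, so that the stretches upstream of their start sites can be set side by side. RefSeq (GRCr8) promoters were matched by symbol for 5 of the 6 genes, all but Slc2a4. The 250 bases before the listed start are printed 5′ to 3′ on the gene's strand. They lie at chr4:159652468-159652717 (- strand) for Gapdh, chr8:68953385-68953634 (+) for Pkm, chr1:106507842-106508091 (+) for Ldha and chr4:116841276-116841525 (- strand) for Hk2. The counts were made on mRatBN7.2, so these positions do not apply to the count table. Capitals mark ACGTG on either strand, a form of the core letters of the hypoxia response element, which is known from glycolytic genes. Other forms, such as GCGTG, were neither marked nor counted.
Gapdh: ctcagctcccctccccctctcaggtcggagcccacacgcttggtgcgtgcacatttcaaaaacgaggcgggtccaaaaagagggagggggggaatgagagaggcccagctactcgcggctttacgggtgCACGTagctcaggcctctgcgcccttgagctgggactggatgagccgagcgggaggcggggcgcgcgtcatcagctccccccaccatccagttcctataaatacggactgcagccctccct
Pkm: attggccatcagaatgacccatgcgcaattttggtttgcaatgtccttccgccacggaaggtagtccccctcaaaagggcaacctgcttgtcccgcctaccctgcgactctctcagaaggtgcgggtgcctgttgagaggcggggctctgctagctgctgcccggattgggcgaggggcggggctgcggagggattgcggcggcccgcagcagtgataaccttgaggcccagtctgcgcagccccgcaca
Ldha: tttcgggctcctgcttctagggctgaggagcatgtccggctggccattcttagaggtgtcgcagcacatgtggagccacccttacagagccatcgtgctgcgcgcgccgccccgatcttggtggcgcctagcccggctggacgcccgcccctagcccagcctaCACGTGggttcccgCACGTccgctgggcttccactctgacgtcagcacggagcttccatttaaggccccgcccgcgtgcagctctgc
Hk2: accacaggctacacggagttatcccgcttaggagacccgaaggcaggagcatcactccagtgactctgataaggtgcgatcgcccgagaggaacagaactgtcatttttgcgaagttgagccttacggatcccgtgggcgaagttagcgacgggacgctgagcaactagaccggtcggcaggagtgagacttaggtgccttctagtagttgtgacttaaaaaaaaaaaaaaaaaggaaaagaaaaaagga
ACGTG on either strand occurred 3 times in the Ldha stretch, where CACGTG holds it on both strands and counts as 2, and 1 time in that of Gapdh. It had 0 matches in Pkm and 0 in Hk2, and 1 in Slc2a1, whose promoter is not printed. Of 33469 promoters of the same length, 16.6% held at least 1 match. The GC box letters GGGCGG, on either strand, occurred 3 times in Ldha, 3 times in Slc2a1 and 1 time in Pkm, with 0 in Gapdh and Hk2, and 30.5% of all promoters held at least 1. A part of either motif in the relations among the genes was not tested.

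Because the code digits split the hearts, group differences were also read within each digit. For Pkm, CBD30 hearts with digit 1 were at 374 and 557 CPM beside 253, 287, 295 and 445 CPM in vehicle hearts, and the log2 fold change was 0.56 ± 0.23 (SE). With digit 2 they were at 261, 351 and 366 CPM beside 307, 435 and 505 CPM, a log2 fold change of -0.35 ± 0.20. The difference had opposite signs in the 2 digits. The change from digit 1 to digit 2 was -0.89 on the log2 scale (edgeR interaction, unadjusted p = 0.0117, adjusted p = 0.376). Without the 3 outlying hearts, all of digit 1, that change was -0.37, with a lone CBD30 heart left in digit 1.

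Gapdh had 0.54 ± 0.26 (log2, SE) in digit 1 and -0.29 ± 0.21 in digit 2 for CBD30 against vehicle, with a difference of -0.82 (edgeR interaction, unadjusted p = 0.0303, adjusted p = 0.376). Ldha was at 0.53 ± 0.24 and 0.12 ± 0.15, and Hk2 at -0.70 ± 0.29 and -0.07 ± 0.33. For CBD3 against vehicle, Pkm was at 0.37 ± 0.21 and -0.08 ± 0.20, Gapdh at 0.36 ± 0.23 and -0.23 ± 0.21, and Ldha at 0.39 ± 0.21 and -0.03 ± 0.15. Without the 3 outlying hearts, digit 1 holds 2 vehicle, 3 CBD3 and 1 CBD30 heart, and the lone CBD30 heart is assumed to vary like the others. In these 6 hearts CBD30 against vehicle was at 0.035 ± 0.25 for Pkm, -0.053 ± 0.27 for Gapdh, 0.068 ± 0.29 for Ldha and -0.51 ± 0.28 for Hk2. CBD3 against vehicle was at 0.17 ± 0.19 for Pkm, 0.11 ± 0.20 for Gapdh and 0.20 ± 0.22 for Ldha. The change from digit 1 to digit 2 for Gapdh in CBD30 against vehicle was then -0.22 (edgeR interaction, unadjusted p = 0.560).

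Slc2a1 showed its split between doses. Digit 1 hearts had 10.2 and 11.8 CPM in CBD30 and 15.8, 22.8 and 26.6 CPM in CBD3, a log2 fold change of -0.97 ± 0.28 (SE). In digit 2 hearts CBD30 had 13.1, 15.6 and 18.9 CPM and CBD3 had 12.4, 13.7 and 19.4 CPM, a log2 fold change of 0.07 ± 0.21. The difference was 1.05 (edgeR interaction, unadjusted p = 0.0103, adjusted p = 0.9996). Without the 3 outlying hearts, digit 1 keeps a lone CBD30 heart, at 10.2 CPM. The log2 fold change in digit 1 was then -1.09 ± 0.30 and the difference 1.16, and both rest on that heart for CBD30 in digit 1. None of the 6 genes passed an adjusted p of 0.05 for a difference between digits in any comparison, where 0.00588% of all genes (1 gene) did for CBD30 against vehicle and 0% for each of the other comparisons.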

How the data were processed

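RNA of 18 hearts was extracted with a phenol reagent, enriched for messenger RNA and made into stranded libraries, per the labels' protocols. The file the authors deposited holds 1 whole-number count per Ensembl gene and heart. Per the submitters' processing notes, featureCounts, edgeR and the build mRatBN7.2 were used, with no version, and no aligner, annotation release or counting setting. Whether counts were adjusted for the code digit before deposit is not stated.

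The members, lists and tests were chosen with earlier results of these data known. Counts were filtered with filterByExpr (minimum count 10, total 15), scaled by TMM and tested in edgeR 4.0.16 (R 4.3.3) with the quasi-likelihood F test. SEs came from the F statistic. Log2 CPM used a prior count of 2. All 6 members were named. For the genes most like a member, the 2 identifiers with the highest r were to be named. The planned pathway and cell type lists could not be matched to identifiers and were not used. Alternatives used DESeq2 1.42.0, limma 3.58.1, other scalings, filters and sample sets. Columns of 4 vehicle hearts could not be tied to a replicate number and were used as vehicle hearts. All 46 pairs of hearts within groups differed beyond sampling noise, with a chi-square of at least 36.0 per degree of freedom.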

Additional observations from a re-analysis of the deposited data

Results flagged for a closer look

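In 18 sets of 5 to 7 hearts tested for a heart far from the others (6 genes in 3 groups), 1 was found. Chance gives about 1 in every 20 sets, so 1 in 18 is near that rate. Hk2 in CBD3 hearts was at 53.1 CPM in the heart coded 1.2 against 32.2 CPM in the next highest of 6, a gap of 0.738 of the whole range. The same heart had the highest Slc2a4 to Slc2a1 ratio (21.9) and the highest Pkm to Gapdh ratio (0.769) of the CBD3 hearts.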

How the results depend on the processing

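None of the 6 genes passed an adjusted p of 0.05 in any comparison under any of 13 alternatives or with any heart left out. Of 234 fold changes under the alternatives, 203 kept their sign and 31 changed it, all of uncalled values; the cause was not tested. Fits within a code digit and without the 3 outlying hearts were chosen after the data were seen.

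Called genes over the table were 160 for CBD30 against vehicle, 8 for CBD3 against vehicle and 1 between doses with DESeq2, and 1 between doses with only the 2 groups compared. Leaving out hearts gave 0 to 267 for CBD30 against vehicle (267 without vehicle heart 3.1, 1 without CBD30 heart 1.1). Gapdh between doses was -0.0075 by library size only and -0.011 with limma voom.

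The replicate block used the 14 hearts with a number, so it also drops 4 vehicle hearts. The vehicle hearts left are those numbered 5, 6 and 7, all of digit 2. No CBD3 or CBD30 heart is numbered 7, so that vehicle heart adds nothing to the comparisons under the block. The labels do not state what same-numbered hearts share. Their deviations had r of -0.20 to 0.31 in 8 pairs, 2 over 0.1, and 3 of 13 hearts correlated best with their own number. The CBD3 and CBD30 hearts numbered 1 (r = -0.077) and 2 (r = 0.31) also shared their code. The block called 0 genes in each comparison. With it, CBD30 against vehicle was -0.080 for Slc2a4, 0.0019 for Hk2, -0.27 for Gapdh and -0.26 for Pkm. CBD3 against vehicle was 0.31 for Hk2, -0.23 for Gapdh and -0.081 for Pkm, and Gapdh between doses -0.048.

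In digit 2 alone, CBD30 against vehicle was -0.29 for Gapdh and -0.35 for Pkm. CBD3 against vehicle was -0.14 for Slc2a1, 0.28 for Hk2, -0.23 for Gapdh, -0.082 for Pkm and -0.034 for Ldha. Between doses Slc2a1 was 0.066, Slc2a4 0.013 and Gapdh -0.063, and in digit 1 Pkm was 0.19. In digit 1 without the 3 outlying hearts, CBD30 against vehicle was -0.13 for Slc2a4 and -0.053 for Gapdh, and between doses Gapdh was -0.17 and Ldha -0.13. Without the 3 outlying hearts, CBD30 against vehicle was -0.015 for Slc2a4, -0.22 for Gapdh and -0.23 for Pkm, CBD3 against vehicle 0.098 for Hk2 and -0.078 for Gapdh, and Gapdh between doses -0.14.

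Leaving out single hearts gave, for CBD30 against vehicle, -0.059 to 0.22 for Gapdh and -0.095 to 0.19 for Pkm. It gave, for CBD3 against vehicle, -0.016 to 0.22 for Slc2a1 and -0.35 to 0.00069 for Hk2. Between doses it gave -0.14 to 0.13 for Gapdh, -0.25 to 0.032 for Pkm and -0.078 to 0.048 for Slc2a4.

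Of 15 relations, 6 passed over all hearts, 7 with group means removed, 9 within digit 1 and 0 within digit 2. With library size only 4 passed, as did 4 without the 2 hearts farthest from the median of the first gene. Without the 3 outlying hearts 3 passed. Hk2 with Gapdh was 0.12 and with Pkm 0.58 in digit 2, and with Pkm 0.26 without the 3.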

Other observations

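Ratios of counts within a heart are free of the scaling of the library, and they depend on transcript lengths, so they are compared between hearts only. Pkm counts per Gapdh count averaged 0.594 ± 0.0450 (SD) over 7 vehicle hearts, 0.627 ± 0.0719 over 6 CBD3 hearts and 0.581 ± 0.0338 over 5 CBD30 hearts, although Gapdh itself varied 2.23-fold. Ldha counts per Gapdh count were 0.683 in the vehicle heart coded 1.2, the lowest of all 18 hearts, and 0.960 to 1.30 in the others. Hk2 counts as a percentage of Gapdh counts ran from 2.70% to 12.4% in vehicle hearts, with the 2 highest in the hearts coded 2.1 (12.4%) and 1.1 (10.01%). They ran from 3.41% to 9.69% in CBD3 and from 2.90% to 6.11% in CBD30 hearts. No test was made of these ratios.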
